A study of Mus musculus with 12 samples.

Results

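The synaptotagmins, syntaxins, VAMPs and other proteins of the synaptic vesicle were examined in RNA of the substantia nigra pars compacta (SNpc) of young mice. The members were the protein-coding genes whose symbol begins with Syt, Stx or Vamp followed by a digit, together with Snap25, Snap23, Snap29, Snap47, Syn1, Syn2, Syn3, Syp, Synpr, Sv2a, Sv2b and Sv2c. The rule was applied to the 54193 genes with transcripts in the data. Of these, 50 members are reported, and 48 of the 50 were among the 18017 genes tested. Syt8 and Stx19 were not tested because their mean normalized counts were under 10, with highest values of 2.36 and 14.4.

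The study asked how loss of 1 copy of Engrailed-1 (En1) alters the SNpc of strains that differ in their susceptibility to dopaminergic neurodegeneration. It compared 4 groups of 3 male mice aged 1 week. OF1-En1+/- mice were represented by libraries SW21, SW22 and SWB, and OF1 WT mice by SW31, SW7 and SWG. C57-En1+/- mice were represented by C5713, C572 and C575, and C57 WT mice by C5710, C572S and C5743. OF1 is an outbred stock and C57 the inbred strain C57BL/6J. En1+/- mice carry an insertion in 1 En1 allele, and the C57-En1+/- line was derived from OF1-En1+/- mice by repeated backcrossing. Each library came from nigral tissue cut by laser from 1 mouse, so all neurons and glia within the cut contributed RNA. Per-library values are given below in the order of these names. They are normalized counts, meaning estimated read counts scaled to a common depth.

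Fusion of a synaptic vesicle is driven by a bundle of SNARE proteins. A VAMP (synaptobrevin) sits in the vesicle, and a syntaxin and a SNAP-25-type protein sit in the target membrane. Synaptotagmins carry C2 domains, and several of them bind calcium and couple its entry to fusion. Synapsins tether vesicles in reserve, while synaptophysin and SV2 proteins span the vesicle membrane. Dopaminergic neurons of the SNpc release dopamine from their cell bodies and dendrites as well as from striatal terminals, and Slc6a3, the dopamine transporter, marks them.

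The libraries differed widely in what they held, also within groups. Estimated reads ranged from 13538864 to 30927714 in the OF1 libraries and from 20030280 to 168741283 in the C57 libraries, and all 3 C57 WT libraries were deeper than every other library. En1 itself was at 0, 691 and 0 in OF1-En1+/- and at 9.44, 15.2 and 1.11 in OF1 WT libraries. It was at 0, 9.41 and 0 in C57-En1+/- and at 0.871, 1071 and 11.7 in C57 WT libraries, so outside SW22 and C572S it was too low to check the genotypes. Slc6a3 was at 205403 in SW22 and 350647 in C572S and at 4.18 to 3230 in the other 10 libraries. Library C572 had the highest Chat, the enzyme that makes acetylcholine (4093, against 0 to 189.8 elsewhere), and the highest Slc18a3, the vesicular acetylcholine transporter (11871, against 9.44 to 515 elsewhere). It also had Xist at 1330 and Ddx3y at 0 although the mouse was recorded as male. Pmch, a hypothalamic peptide gene, reached 407860 in SW7, 93563 in C575 and 211048 in C5743. Because the tissue is a mixture, fewer cells of a type and less RNA per cell cannot be told apart in any value that follows.

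Per unit of transcript length, Snap25 was the most abundant member, with a median of 1125 TPM (a length-corrected share of the library) over the 12 libraries and a range of 454 to 1415. Snap47, a broadly expressed SNAP-25 relative, followed at a median of 797 TPM (710 to 938), and Syp at 730 TPM (342 to 940.5). The ranges of these 3 genes overlapped. Syt11, a synaptotagmin that does not act as a calcium sensor, had a median of 340.1 TPM, and the vesicle SNARE Vamp2 had 331 TPM. The endosomal syntaxin Stx7 had 215 TPM, the fast calcium sensor Syt1 had 203 TPM, and Sv2a had 167 TPM. Stx1a, a neuronal plasma membrane syntaxin, had a median of 129 TPM. At the low end, Syt10 had a median of 0.125 TPM and Stx11 of 0.232 TPM. The summed level of the members reported was 5316 to 6420 TPM in OF1-En1+/-, 4241 to 6236 in OF1 WT, 4198 to 5046 in C57-En1+/- and 5816 to 7032 in C57 WT libraries.

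Members differed widely in how much they varied between libraries. The highest library exceeded the lowest by under 2-fold in 9 members, by 2-fold to 5-fold in 20 and by over 5-fold in 17, and 2 members (Syt10 and Vamp9) were at 0 in some libraries. Snap47 was among the steadiest, at 27054 to 39764. Vamp4, a VAMP of the trans-Golgi network and endosomes, lay between 2694 and 3840, and the Golgi syntaxin Stx5a between 2035 and 3063. The extremes were not spread evenly over the libraries. C572 was the highest of the 12 libraries for 10 members and the lowest for 12, where it was the highest for 13.9% and the lowest for 12.3% of all tested genes. C572S was the highest for 10 members, against 11.8% of all tested genes.

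**Figure D1:**
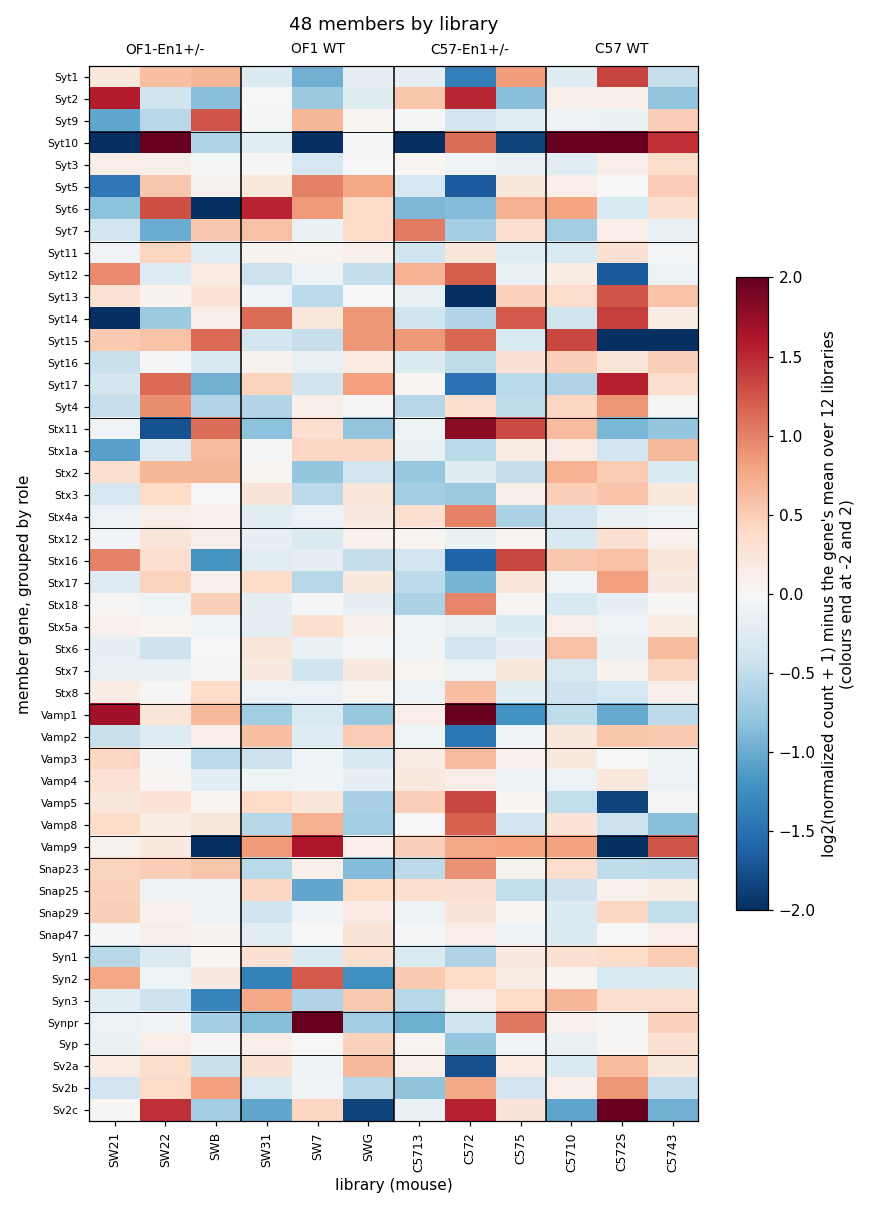
Heat map of the 48 tested members (rows, grouped by role) in the 12 libraries (columns, grouped by strain and genotype). Colour is log2(normalized count + 1) minus the mean of that gene over the 12 libraries, with colours ending at -2 and 2. Vamp1 and Syt2 were highest in SW21 and C572, and Syt4, Syt17 and Syt11 in SW22 and C572S.

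The strains were compared first, with both genotypes averaged. Of the 48 members reported, 0 passed the quasi-likelihood test of edgeR and 0 passed with DESeq2, where 2.00% of all tested genes passed with edgeR and 3.67% with DESeq2. At an unadjusted p under 0.05 there were 0 of these members and 8.68% of all genes. The strains did not overlap for 0 of these members and for 2.39% of all tested genes. Positive estimates were found for 23 and negative ones for 25 members, and their median log2 fold change was -0.01, against -0.04 over all tested genes. Sequencing depth moved with strain mainly through the C57 WT libraries, and the En1+/- libraries of the strains overlapped in depth. The transcripts used for quantification were those of the C57BL/6J reference genome. The part of depth or of the reference genome in the strain differences was not tested.

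Stx1a, a syntaxin of the neuronal plasma membrane that anchors the SNARE bundle there, was at 2776, 4944 and 9141 in OF1-En1+/-, 5838, 7867 and 7886 in OF1 WT, 5419, 4060 and 6564 in C57-En1+/- and 6642, 4531 and 9324 in C57 WT libraries. Strains and genotypes overlapped throughout, and its mean was 6409 ± 2343 in OF1 and 6090 ± 1897 in C57 mice (SD, n = 6 each). The log2 fold change of Stx1a for OF1 over C57 was 0.07 (SE 0.27). Vamp2 and Snap25 had log2 fold changes of 0.06 (SE 0.24) and 0.05 (SE 0.25) in the same comparison. Stx4a, a broadly expressed plasma membrane syntaxin, was at 495.5 to 656 in the OF1 and 375 to 1151 in the C57 libraries.

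**Figure D2:**
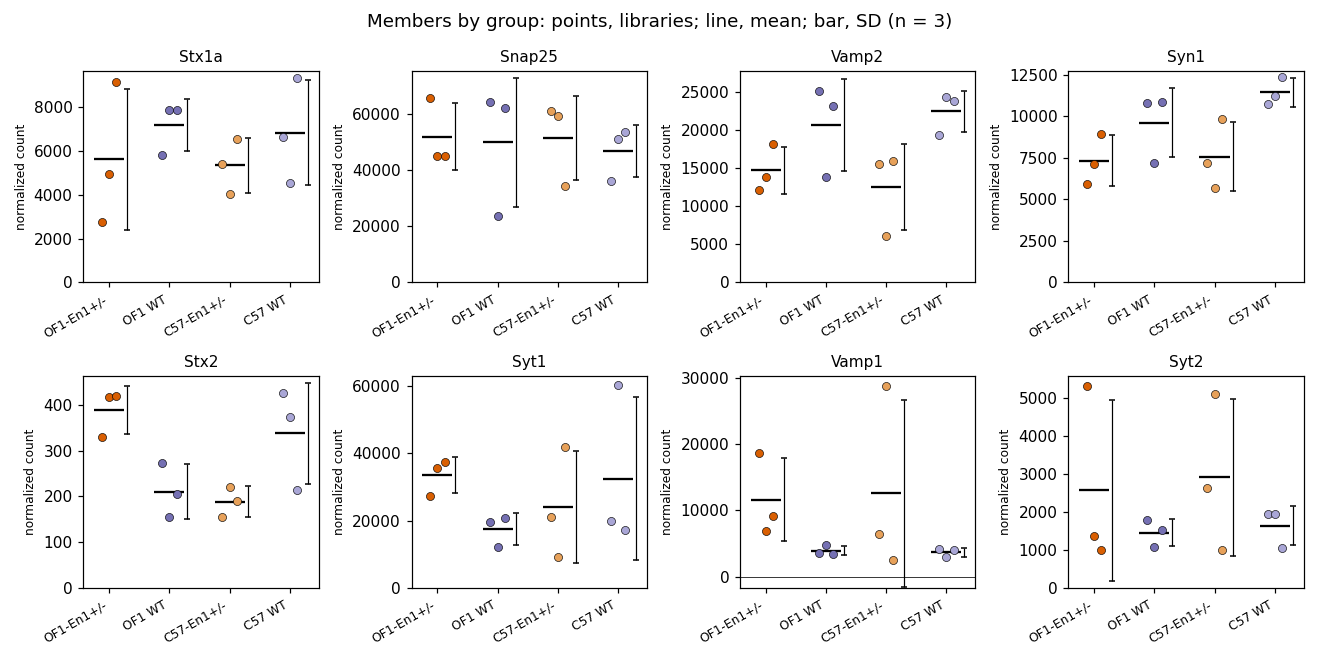
Normalized counts of 8 members by group; points are the 3 libraries of a group, the line is their mean and the bar to its right the SD. Stx1a, Snap25 and Vamp2 overlapped between strains, and Stx2 was at 329 to 419.9 in OF1-En1+/- against 154 to 274 in OF1 WT libraries.

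Of the members reported, the smallest p in the comparison of strains over genotypes were those of Vamp3, Syt16 and Syn3. Vamp3 (cellubrevin), the VAMP of recycling endosomes, was at 972 to 1856 in the OF1 and 1294 to 2158 in the C57 libraries. Its log2 fold change was -0.31 (SE 0.18, adjusted p = 0.74 by edgeR). Syt16, a synaptotagmin that lacks a transmembrane segment, was at 2627 to 3988 in the OF1 and 2510 to 4979 in the C57 libraries, a log2 fold change of -0.25 (SE 0.15, adjusted p = 0.781 by edgeR). Syn3, the synapsin of immature neurons, had -0.37 (SE 0.28, adjusted p = 0.875 by edgeR), or -0.23 without SW7 and -0.24 without SWB. Without C575 the value of Syt16 was -0.12. Both strains overlapped for all 3 genes.

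In WT mice alone, 0 of the 48 members reported passed when OF1 WT was set against C57 WT, where 1.03% of all tested genes passed with edgeR and 2.56% with DESeq2. DESeq2 called 0 of them, and at an unadjusted p under 0.05 edgeR had 0 of them and 8.63% of all genes. The groups did not overlap for 4 members, all lower in OF1 WT (Syt10, Syt13, Syt16 and Stx16), and for 14.8% of all tested genes. Syt10, a calcium sensor known from hormone release in the olfactory bulb, was very low. It was at 4.72, 0 and 5.55 in OF1 WT and at 57.5, 58.0 and 17.5 in C57 WT libraries, with a log2 fold change of -3.69 (SE 1.75, adjusted p = 0.601 by edgeR). Syt13, an atypical synaptotagmin that does not bind calcium, was at 6133, 4535 and 6491 in OF1 WT and at 8337, 15502 and 9652 in C57 WT libraries. Its highest value was in C572S, and its log2 fold change was -0.97 (SE 0.53, adjusted p = 0.672 by edgeR), or -0.65 without SW22 and C572S. With DESeq2 and without C572, which is not in either group but enters the fit, Syt13 passed (adjusted p = 0.0274). Stx2, a plasma membrane syntaxin found in many cell types, was at 274, 154 and 204 in OF1 WT and at 426, 375 and 213.5 in C57 WT libraries, and the groups overlapped (log2 fold change -0.68, SE 0.35, adjusted p = 0.635 by edgeR). The median over members was -0.04, against -0.06 over all genes.

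In En1+/- mice, 0 of the 48 members reported passed when OF1-En1+/- was set against C57-En1+/-, where 0.927% of all tested genes passed with edgeR and 2.49% with DESeq2. DESeq2 called 0 of them, and at an unadjusted p under 0.05 there was 1 of them, Stx2, and 8.00% of all genes. Groups were apart for 2 members (Vamp9 lower and Stx2 higher in OF1-En1+/-) and for 13.2% of all genes. Stx2 was at 329, 418.5 and 419.9 in OF1-En1+/- and at 155, 222 and 189.5 in C57-En1+/- libraries. Its log2 fold change was 1.04 (SE 0.35, adjusted p = 0.368 by edgeR). Syn3 came next with -0.62 (SE 0.39, adjusted p = 0.776), or -0.37 without SWB and -0.41 without C575, followed by Syt14, a synaptotagmin without calcium binding, with -1.05 (SE 0.75, adjusted p = 0.818 by edgeR). Leaving out C575 moved the Syt14 value to -0.23, leaving out SW21 to -0.57 and leaving out SWB to -1.81. Syt14 was at 17.6, 86.0 and 155 in OF1-En1+/- and at 109, 95.1 and 336 in C57-En1+/- libraries, and the groups overlapped.

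The effect of En1 hemizygosity was then examined within each strain. In OF1 mice, 0 of the 48 members passed, as did 0.00% of all tested genes with edgeR and 1.26% with DESeq2. At an unadjusted p under 0.05 there were 3 members (Stx2, Syn3 and Vamp1) and 9.18% of all genes with edgeR, and DESeq2 called 0 members. The groups did not overlap for 6 members, of which Stx2, Vamp1, Snap23, Syt1 and Syt13 were higher and Syt14 was lower in OF1-En1+/- mice, and for 15.7% of all genes. Estimates were positive for 29 and negative for 19 members, with a median of 0.10, against -0.02 over all genes.

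Stx2 was at 329, 418.5 and 419.9 in OF1-En1+/- and at 274, 154 and 204 in OF1 WT libraries, a log2 fold change of 0.89 (SE 0.35, adjusted p = 0.503 by edgeR). In C57 mice the estimate had the opposite sign. Stx2 was at 155, 222 and 189.5 in C57-En1+/- and at 426, 375 and 213.5 in C57 WT libraries, and the groups overlapped (log2 fold change -0.84, SE 0.35, adjusted p = 0.558). The test of the difference between strains, the interaction, gave 1.73 (SE 0.49) with an adjusted p of 0.691 by edgeR and 0.147 by DESeq2, so it did not pass. In that comparison 0 of 48 members and 0.00% of all genes passed with edgeR, and 0.236% of all genes with DESeq2. At an unadjusted p under 0.05 there was 1 member, Stx2, and 7.07% of all genes. The next smallest p in the interaction were those of Syt10 at 4.71 (SE 2.37) and Syt13 at 1.47 (SE 0.74, adjusted p = 0.719). The Syt10 value was 2.32 without SW22 and 7.77 without C572, and the Syt13 value was 0.97 without C572.

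Syn3 was at 426, 372 and 199 in OF1-En1+/- and at 840, 328.5 and 715 in OF1 WT libraries. SW7 held the low value among the OF1 WT libraries, so the groups overlapped (log2 fold change -0.92, SE 0.39, adjusted p = 0.53 by edgeR). Syt1, the calcium sensor of synchronous release at most forebrain synapses, was at 27284, 35670 and 37336 in OF1-En1+/- and at 19526, 12167 and 20823 in OF1 WT libraries. There was no overlap, and the log2 fold change was 0.93 (SE 0.55, adjusted p = 0.63). In C57 mice it was at 20932, 9158 and 41901 in C57-En1+/- and at 19866, 60339 and 17138 in C57 WT libraries, and the groups overlapped. Snap23, the SNAP-25 relative of non-neuronal cells, was at 496.5, 512 and 536 in OF1-En1+/- and at 250.1, 390.5 and 199.8 in OF1 WT libraries (log2 fold change 0.88, SE 0.41, adjusted p = 0.546).

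In C57 mice, 0 of the 48 members passed when C57-En1+/- was set against C57 WT, as did 0.00% of all tested genes with edgeR and 0.416% with DESeq2. At an unadjusted p under 0.05 there were 8 members, 2 of them higher and 6 lower in C57-En1+/- mice, and 8.57% of all genes, and DESeq2 called 0 members. Overlap was absent for 6 members (Vamp5 and Syn2 higher, and Stx3, Syn1, Vamp2 and Syt10 lower) and for 14.3% of all genes. Estimates were positive for 19 and negative for 29 members, with a median of -0.14, against -0.05 over all genes. Depth moved with genotype in C57 mice, at 61433970 to 168741283 estimated reads in C57 WT and 20030280 to 37754338 in C57-En1+/- libraries. The part of depth in these estimates was not tested. The smallest p were those of 3 members with lower estimates in C57-En1+/- mice. Stx6, a syntaxin of the trans-Golgi network, was at 1476, 1183 and 1377 in C57-En1+/- and at 2306, 1405 and 2385 in C57 WT libraries (log2 fold change -0.60, SE 0.23, adjusted p = 0.555 by edgeR). Stx3, the syntaxin of apical membranes and ribbon synapses, was at 302, 294 and 527 in C57-En1+/- and at 674, 723.5 and 562 in C57 WT libraries (log2 fold change -0.80, SE 0.32, adjusted p = 0.558).

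Syn1 and Vamp2, both core components of the vesicle, were lower by estimate in En1+/- mice of both strains, and neither passed the test. Syn1, the most studied of the vesicle-tethering synapsins, was at 5943, 7136 and 8948 in OF1-En1+/-, 10776, 7211 and 10868 in OF1 WT, 7172, 5716 and 9838 in C57-En1+/- and 10728, 11198 and 12399 in C57 WT libraries. All 3 C57-En1+/- libraries were below all 3 C57 WT libraries, whereas the OF1 groups overlapped. Averaged over strains the log2 fold change was -0.49 (SE 0.17, adjusted p = 0.36 by edgeR), and without C572 it was -0.40. Vamp2, the main vesicle SNARE of central synapses, was at 12209, 13805 and 18198 in OF1-En1+/- and at 25182, 13797 and 23151 in OF1 WT libraries. It was at 15621, 6096 and 15957 in C57-En1+/- and at 19412, 24345 and 23784 in C57 WT libraries, with the lowest value in C572. Averaged over strains the log2 fold change was -0.67 (SE 0.24, adjusted p = 0.366 by edgeR), and without C572 it was -0.49 (adjusted p = 0.552). Syn1 lies on the X chromosome, and the part of this in its values was not tested.

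Averaged over strains, 0 of the 48 members passed when En1+/- was set against WT, as did 0.00% of all tested genes with edgeR and 1.40% with DESeq2. At an unadjusted p under 0.05 there were 8 members, 3 of them higher and 5 lower in En1+/- mice, and 11.4% of all tested genes, and DESeq2 called 0 members. No member separated the genotypes in all 12 libraries, and 0.771% of all genes did. The median over members was 0.01, against -0.02 over all genes.

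**Figure D3:**
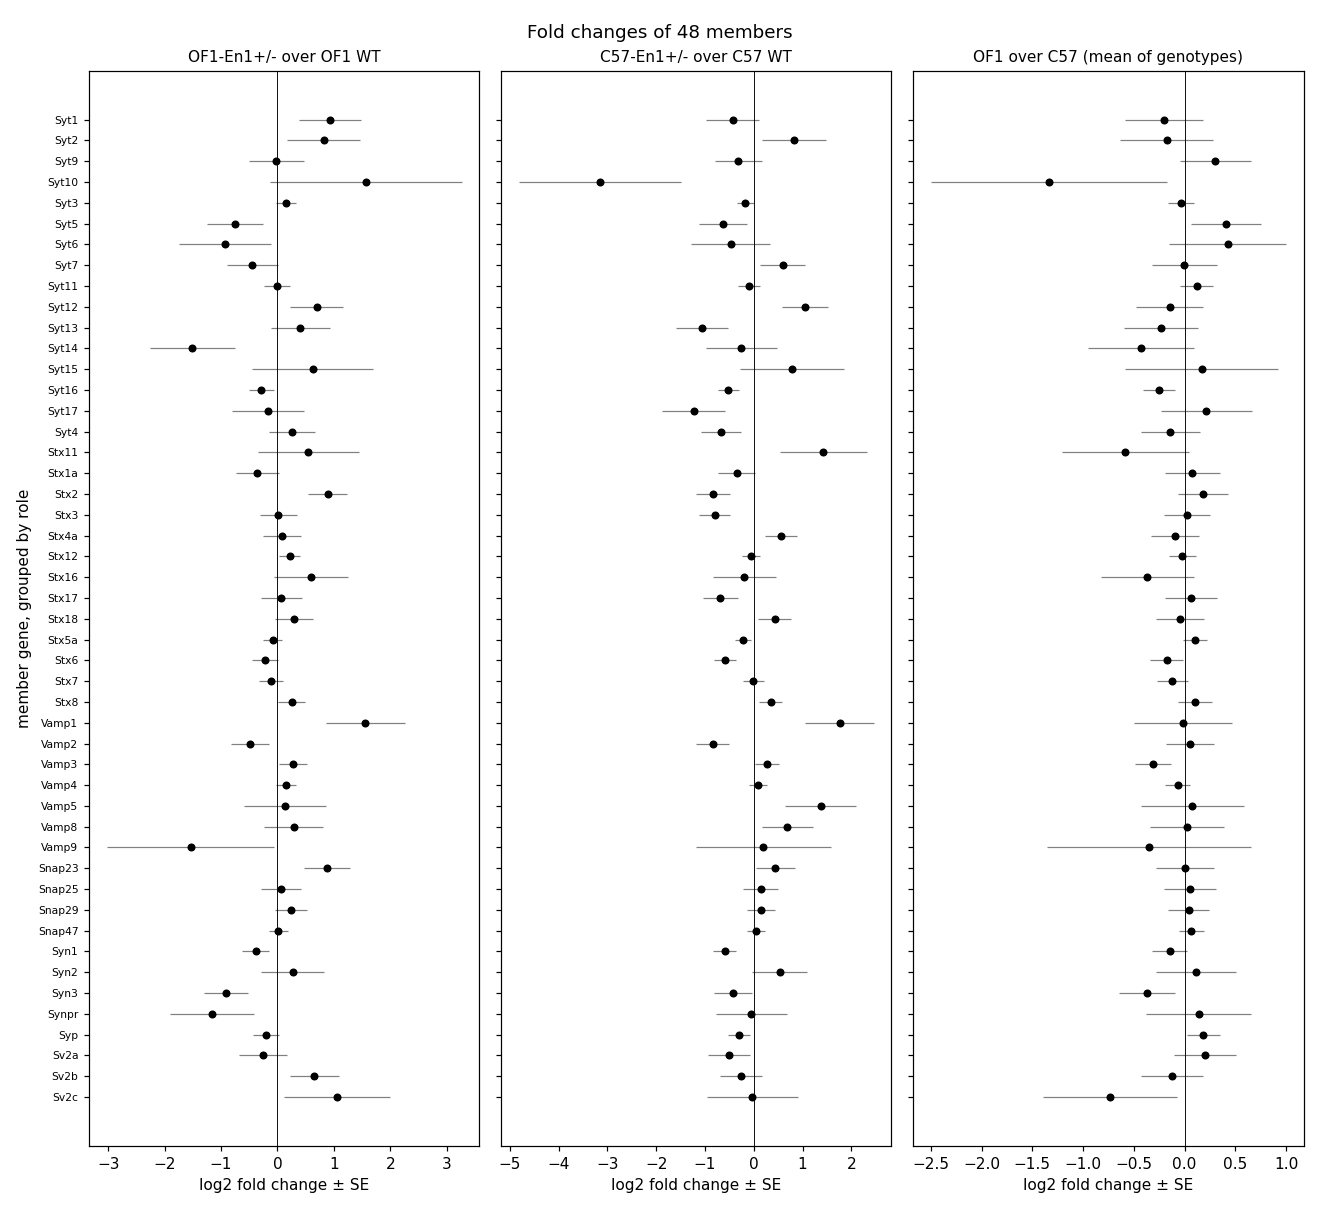
Log2 fold changes of the 48 members with their SE (edgeR), in OF1-En1+/- over OF1 WT, C57-En1+/- over C57 WT, and OF1 over C57 averaged over genotypes; each panel has its own horizontal scale. Vamp1 is at 1.56 in OF1 mice, and the low genes Syt10 and Vamp9 have the widest error bars of the members drawn.

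The smallest p for En1+/- against WT averaged over strains belonged to Vamp1, the vesicle SNARE of spinal cord, brainstem and other fast-firing neurons. Vamp1 was at 18702, 6925 and 9165 in OF1-En1+/- and at 3601, 4741 and 3479 in OF1 WT libraries, without overlap. It was at 6445, 28713 and 2532 in C57-En1+/- and at 4135, 2926 and 4089 in C57 WT libraries, and there the groups overlapped because C575 was the lowest of the 12 libraries. Averaged over strains the log2 fold change was 1.66 (SE 0.49), with an adjusted p of 0.336 by edgeR and 0.0715 by DESeq2, and without C572 it was 0.93 (adjusted p = 0.552 by edgeR). In OF1 mice it was 1.56 (SE 0.70, adjusted p = 0.537 by edgeR), or 1.03 without SW21. When C572 was left out of the fit, DESeq2 gave an adjusted p of 0.0161 for the comparison within OF1 mice.

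Vamp1 was highest in a pair of libraries. SW21 and C572 were also the highest libraries for Syt2, the fast calcium sensor of the brainstem and spinal cord, which was named after its values were seen. Syt2 was at 5324, 1363 and 1006 in OF1-En1+/-, 1779, 1070 and 1513 in OF1 WT, 2625, 5108 and 1000 in C57-En1+/- and 1937, 1942 and 1040 in C57 WT libraries. The marker lists of oligodendrocytes, of astrocytes, and of mural cells and fibroblasts each had their highest sums in SW21 and C572. The 10 oligodendrocyte genes summed to 113191 in SW21 and 197226 in C572, against 10809 to 59738 in the other 10 libraries. The astrocyte genes summed to 68080 in SW21 and 78270 in C572, and the next highest sum was 58578 in SW22. The genes of mural cells and fibroblasts summed to 6348 in SW21 and 6118 in C572, and the next was 4609 in C575. The 8 genes of GABAergic neurons did not move with both, as they summed to 76446 in SW21, the highest, and to 8985 in C572, the lowest of the 12 libraries. The 15 pan-neuronal genes summed to 928734 in C572, the highest, and to 391493 in SW21, against 383197 to 576821 in the other 10 libraries. The 6 genes counted as markers of oculomotor and other cholinergic neurons were all above 0 in C572 and in SWB. Their sum was 49328 in C572, against 716 to 6129 in the other 11 libraries, SW21 among them at 2642. The part of these cells in the levels of Vamp1 and Syt2 was not tested.

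The promoter windows of these 2 genes are shown because the genes were highest in the same libraries. They are RefSeq sequences of GRCm38.p6, from 250 bases before to 50 bases after the start. Promoter windows were matched for 40 of the 50 members. Capitals mark matches on either strand to a GC box (GGGCGG) or a CCAAT box (CCAAT), and matches to TATAAA and TGACGTCA were searched as well.
Vamp1, chr6:125215331-125215630, plus strand: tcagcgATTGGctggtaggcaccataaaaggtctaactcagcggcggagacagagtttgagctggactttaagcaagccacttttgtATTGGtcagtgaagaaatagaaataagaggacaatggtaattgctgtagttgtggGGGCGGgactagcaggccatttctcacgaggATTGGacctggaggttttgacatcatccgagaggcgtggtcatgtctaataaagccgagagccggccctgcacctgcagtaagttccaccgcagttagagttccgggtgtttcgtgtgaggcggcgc
Syt2, chr1:134646362-134646661, plus strand: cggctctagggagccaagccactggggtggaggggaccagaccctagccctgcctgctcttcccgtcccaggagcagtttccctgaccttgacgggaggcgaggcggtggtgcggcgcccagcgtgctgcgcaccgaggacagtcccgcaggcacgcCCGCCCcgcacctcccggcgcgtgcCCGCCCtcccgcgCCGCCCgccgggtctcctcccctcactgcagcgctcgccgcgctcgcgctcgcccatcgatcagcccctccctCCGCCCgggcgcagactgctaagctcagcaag
The Vamp1 window held 3 matches to the CCAAT box and 1 to the GC box. This Syt2 window held 4 matches to the GC box and 0 to the CCAAT box, and a second Syt2 window further downstream held 2 and 1. Of 32851 windows of the same length, 35.7% held a GC box and 37.4% a CCAAT box. TATAAA and TGACGTCA, held by 13.6% and 1.79% of all windows, had no match in these letters.

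C572 was the lowest of the 12 libraries for several abundant vesicle genes. Sv2a, the most widely expressed SV2 protein, was at 18087, 20546 and 11894 in OF1-En1+/-, 19880, 15028 and 25279 in OF1 WT, 17468, 4766 and 18014 in C57-En1+/- and 13183, 24941 and 18860 in C57 WT libraries. Apart from C572 the lowest Sv2a value was 11894. Syp (synaptophysin), the most abundant protein of the vesicle membrane by mass, was at 38460, 46403 and 42894 in OF1-En1+/- and at 46326, 42106 and 58232 in OF1 WT libraries. It was at 43862, 24834 and 39676 in C57-En1+/- and at 37950, 43144 and 52426 in C57 WT libraries. C572 was also lowest for Syt13, at 1141 against 4535 or more elsewhere, and for Syt5, at 1590 against 1878 or more. Syp is X-linked and C572 is the library with Xist, whereas Sv2a, Syt13 and Syt5 lie on chromosomes 3, 2 and 7. The part of the X chromosome in the Syp values was not tested.

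SW7 stood apart for Synpr (synaptoporin), a synaptophysin relative of subsets of neurons, which was named after its values were seen. Synpr was at 9308 in SW7 and 4372 in C575, and at 1070 to 2919 in the other 10 libraries. SW7 and C575 were also among the 3 libraries with the most Pmch. The third, C5743, had 2919, the next highest value. The part of hypothalamic tissue in Synpr was not tested.

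The total of Snap25 passed the threshold in no comparison. It was at 65966, 45099 and 45077 in OF1-En1+/-, 64389, 23556 and 62303 in OF1 WT, 61122, 59319 and 34402 in C57-En1+/- and 36184, 51042 and 53539 in C57 WT libraries. The groups overlapped in every comparison, and the lowest value was that of SW7. The SE of its log2 fold change for genotype was 0.36 in each strain, so moderate differences in Snap25 could be missed. The other SNAP-25-type genes were Snap47, Snap29 (422 to 827), which acts in endosomal and autophagosomal fusion, and Snap23. All 4 had positive estimates for En1+/- over WT averaged over strains, with a median of 0.14, and 0 passed.

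Snap25 is spliced to include 1 of a pair of alternative copies of exon 5, and the pair encodes SNAP-25a, the form of young brain, and SNAP-25b, which becomes predominant as synapses mature. The copies lie 196 bases apart on chromosome 2 of GRCm39 and are shown because the reads can be divided between them. Capitals mark the 31 of 118 bases that differ.
Exon 5a, chr2:136611663-136611780, plus strand: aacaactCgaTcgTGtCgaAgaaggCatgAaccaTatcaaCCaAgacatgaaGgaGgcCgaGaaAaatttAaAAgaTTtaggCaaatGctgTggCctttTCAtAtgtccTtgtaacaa
Exon 5b, chr2:136611977-136612094, plus strand: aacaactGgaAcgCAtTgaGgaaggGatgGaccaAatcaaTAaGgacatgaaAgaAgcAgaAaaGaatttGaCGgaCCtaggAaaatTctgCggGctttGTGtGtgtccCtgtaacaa

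Most Snap25 reads were assigned to the transcript with exon 5b. The share of the exon 5a transcript, among the reads of both, was 0.325%, 10.0% and 2.32% in OF1-En1+/- and 1.17%, 4.10% and 2.26% in OF1 WT libraries. It was 0.582%, 0.47% and 3.97% in C57-En1+/- and 2.50%, 7.50% and 1.59% in C57 WT libraries. The highest shares were those of SW22 (95% exact interval 9.61% to 10.5%) and C572S (7.33% to 7.68%), the libraries rich in Slc6a3, and the next was SW7. The lowest were those of SW21, C572 and C5713. These intervals cover counting error only, and they are too narrow because just the reads that touch exon 5 tell the transcripts apart. The strain difference, OF1 minus C57, was 0.60 percentage points (two-sided exact permutation test, p = 0.723). En1+/- minus WT was 1.71 points in OF1 (p = 0.8) and -2.19 points in C57 mice (p = 0.5) by the same exact test, in which 3 against 3 mice cannot give a p below 0.1. Without SW22 the strain difference was -0.74 and the OF1 genotype difference -1.19 points, so both changed sign, and neither passed. Without C572S the C57 genotype difference was -0.37 points.

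**Figure D4:**
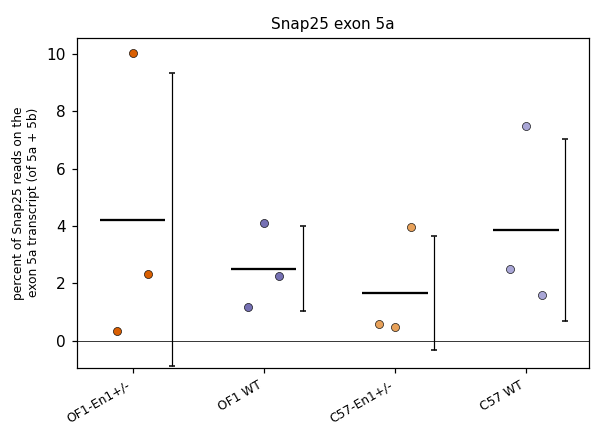
Percent of Snap25 reads on the exon 5a transcript, of those on the exon 5a and exon 5b transcripts, by group; points are libraries, the line is the mean and the bar the SD of 3 libraries. The points at 10.0% (OF1-En1+/-) and 7.50% (C57 WT) are SW22 and C572S.

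The members were then examined for whether they followed Slc6a3. SW22 and C572S, from an OF1-En1+/- and a C57 WT mouse, differ in both strain and genotype, so a gene that follows them separates neither. The 18 dopaminergic neuron genes summed to 438000 in SW22 and 704377 in C572S, and to 3204 to 44564 in the other 10 libraries. Because the libraries form these clusters, a correlation over all 12 is not given. Of the 48 members, 5 had SW22 and C572S as their 2 highest libraries, as did 3.00% of the other tested genes.

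Syt4, a synaptotagmin of dense-core vesicles whose calcium binding is impaired in mammals, had the widest margin. It was at 5417, 14231 and 4968 in OF1-En1+/-, 4995, 8018 and 7552 in OF1 WT, 5033, 9275 and 5269 in C57-En1+/- and 10001, 13770 and 7604 in C57 WT libraries. SW22 and C572S had at least 1.38 times the next library, C5710. Syt17, a synaptotagmin of the Golgi and early endosomes, was at 3834, 10792 and 2531 in OF1-En1+/-, 6746, 3744 and 8723 in OF1 WT, 5047, 1764 and 3396 in C57-En1+/- and 3249, 14477 and 6297 in C57 WT libraries. Its lower value in the pair was 1.24 times that of the next library, SWG. Of the Syt17 reads, a minor annotated transcript took 21.4% in SW22 and 20.0% in C572S, against 0% to 10.1% in the other 10 libraries, a comparison made after the values were seen.

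The other 3 members exceeded the remaining libraries only narrowly. Stx12, an endosomal syntaxin, was at 9541 and 10004 in the pair and at 6449 to 8752 elsewhere. Stx17, the syntaxin of autophagosomes, was at 1332 and 1745 in the pair and at 513 to 1267 elsewhere. Syt11 was at 45241 and 41204 in the pair and at 25492 to 39602 elsewhere, with the next value in C572. Stx3 came sixth, at 644 in SW22 and 723.5 in C572S, because C5710 had 674.

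Sv2c, the SV2 protein of basal ganglia and dopaminergic neurons, missed the pattern through a single library and was named after its values were seen. It was at 1924, 5192 and 1172 in OF1-En1+/-, 920.2, 2545 and 524 in OF1 WT, 1721, 5490 and 2261 in C57-En1+/- and 912, 7802 and 976 in C57 WT libraries. The library with the most cholinergic neuron RNA by the 6 genes above, C572, was above SW22, and the remaining 9 libraries were at 524 to 2545. Syt1 was highest in C572S at 60339, but SW22 at 35670 was exceeded by SWB and C575. By contrast Snap25, Vamp2, Syp and Stx1a in SW22 and C572S lay within the range of the other 10 libraries.

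**Figure D5:**
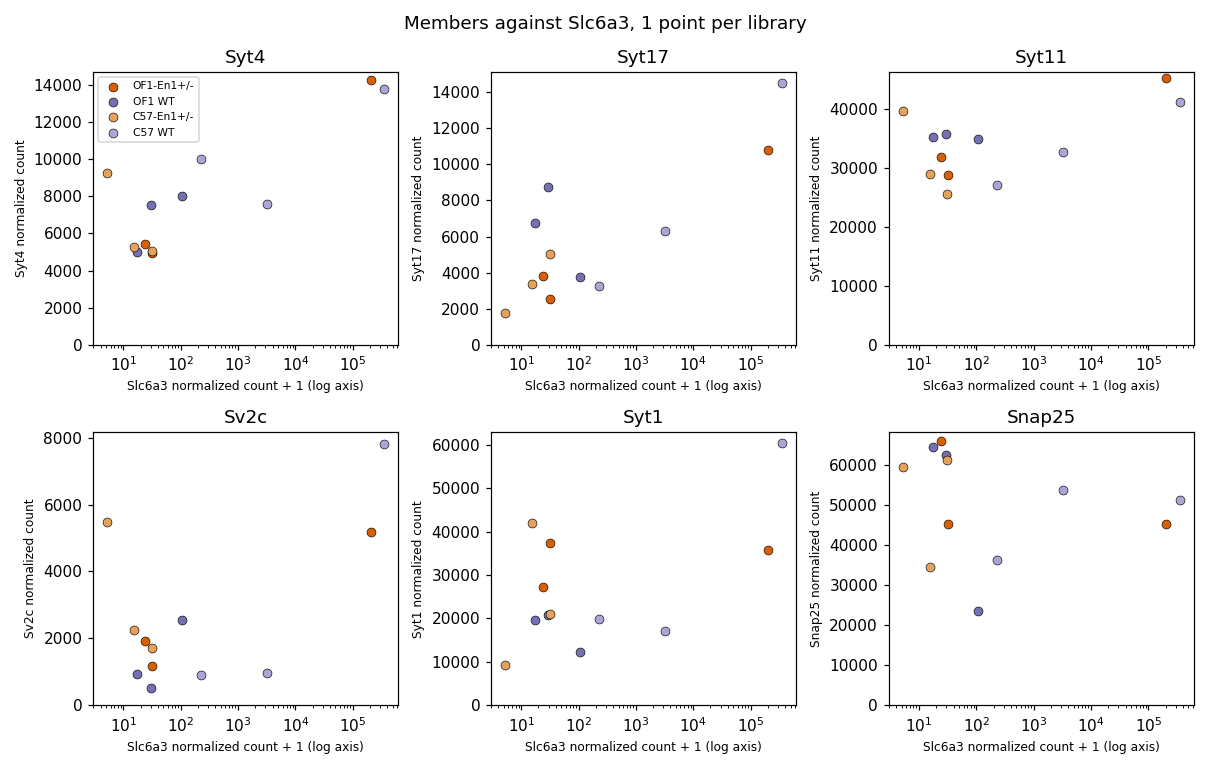
Normalized counts of 6 members (vertical, from 0) against the normalized count of Slc6a3 plus 1 (horizontal, log axis), 1 point per library, coloured by group. The 2 points at the right of each panel are SW22 and C572S; Syt4, Syt17 and Syt11 were highest there, Sv2c was matched by C572 at the left, and Snap25 was not raised.

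Among the other 10 libraries, where Slc6a3 ranged from 4.18 to 3230, no member was related to it past the threshold. Log2 normalized counts were correlated with those of Slc6a3 for 18016 genes, with permutation p adjusted over all of them. The adjusted p was under 0.05 for 0 members and 0 genes by Pearson's r and by Spearman's rho. With 100000 draws no permutation p could fall below about 1e-05. A single gene at that value could not pass after adjustment over 18016 genes, so the adjusted p says little about any 1 member. Before adjustment, p was under 0.05 for 4 members by r (Snap29, Stx5a, Syt16 and Stx6) and for 3 by rho (Stx5a, Stx1a and Stx6), against 4.76% and 4.14% of all genes. Stx6 had the highest r, 0.82 (permutation p = 0.00463, adjusted 0.942), with a rho of 0.71 (permutation p = 0.0269, adjusted 1). Its r fell to 0.32 without C5710 and C5743, the libraries farthest from the median of Slc6a3, so the relation rests on them. Stx5a had an r of 0.63 (permutation p = 0.0473, adjusted 0.942) and a rho of 0.82 (permutation p = 0.00566, adjusted 1), and its r was 0.77 without them. Each strain has 5 of these libraries, which is too few for a value within strains.

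One more member changed its call with the libraries used. Syt6, a synaptotagmin known from the sperm acrosome that is also made in brain, was at 162, 705 and 36.0 in OF1-En1+/- and at 823.5, 518 and 369 in OF1 WT libraries. SW22 lay among the OF1 WT values, and the log2 fold change was -0.93 (SE 0.82, adjusted p = 0.767 by edgeR). With SW22 and C572S left out, which leaves SW21 and SWB as the OF1-En1+/- libraries, it was -2.52 by DESeq2 (adjusted p = 0.021). By edgeR it was -0.396 without SWB and -0.545 without SW31.

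Of the 3 fast calcium sensors (Syt1, Syt2 and Syt9), 2 had positive estimates for En1+/- over WT averaged over strains, with a median of 0.25. Of the 5 other calcium-binding synaptotagmins 1 was positive (median -0.70), and of the 8 tested synaptotagmins without that property 2 were positive (median -0.27). Of the 5 tested plasma membrane syntaxins 3 were positive (median 0.02), and of the 8 intracellular syntaxins 4 (median 0.01). All 4 non-synaptic VAMPs had positive estimates (median 0.38), and both members of the synaptophysin family had negative ones (median -0.43). None of these groups had a member that passed in that comparison. In the comparison of strains averaged over genotypes the medians by role were between -0.18 and 0.16, apart from Vamp9, which was given no role and had -0.35.

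The partners of these proteins were counted in the same way. Of 45 tested genes that dock, prime or regulate vesicle fusion, 0 passed with edgeR in any of the 7 comparisons, and of 33 tested genes of the vesicle membrane and its recycling, 0 passed. For En1+/- over WT averaged over strains, 14 of the 45 had positive and 31 negative estimates (median -0.23), and 12 of the 33 had positive and 21 negative estimates (median -0.26), against -0.02 over all genes. At an unadjusted p under 0.05 there were 10 of the 45 and 5 of the 33, and 11.4% of all tested genes. DESeq2 called Rph3a (rabphilin), a Rab3 effector on vesicles, lower in OF1 mice carrying the En1 mutation. It averaged 781 ± 142 in OF1-En1+/- and 2890 ± 1506 in OF1 WT mice (SD, n = 3 each), with a log2 fold change of -1.89 (edgeR SE 0.40). The adjusted p of Rph3a was 0.00135 by DESeq2 and 0.447 by edgeR. Without SW22 and C572S it was 0.00449 by DESeq2 and 0.35 by edgeR, and without C572 it was 0.00206 and 0.336. Dnm1, the dynamin that cuts vesicles from the membrane, averaged 2810 ± 198 in OF1-En1+/-, 5080 ± 1523 in OF1 WT, 3150 ± 783 in C57-En1+/- and 4623 ± 275 in C57 WT mice. Averaged over strains its log2 fold change was -0.70, with an adjusted p of 0.0338 by DESeq2 and 0.33 by edgeR. With DESeq2 the adjusted p of Dnm1 was 0.082 without SW22 and C572S and 0.0957 without C572.

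Between strains, Sytl1, a Rab27 effector with synaptotagmin-like C2 domains, averaged 97.1 ± 41.3 in OF1-En1+/-, 134 ± 72.6 in OF1 WT, 9.07 ± 13.0 in C57-En1+/- and 4.14 ± 3.72 in C57 WT mice. Its log2 fold change for OF1 over C57 averaged over genotypes was 4.15 (SE 0.98), with an adjusted p of 0.0557 by edgeR and 5.87e-05 by DESeq2. Without SW22 and C572S the adjusted p was 0.14 by edgeR and 0.00047 by DESeq2, and without C572 it was 0.0645 and 1.5e-05. For OF1 WT over C57 WT the log2 fold change of Sytl1 was 4.95, with an adjusted p of 0.218 by edgeR and 0.00226 by DESeq2. Ppfia4, an active zone scaffold (liprin), averaged 606 ± 157 in OF1-En1+/-, 970.5 ± 182 in OF1 WT, 1338 ± 341 in C57-En1+/- and 872.5 ± 120 in C57 WT mice (SD, n = 3 each). For OF1-En1+/- over C57-En1+/- its log2 fold change was -1.14, with an adjusted p of 0.0954 by edgeR and 0.00558 by DESeq2. The DESeq2 call was lost without SW22 and C572S (adjusted p = 0.0654) and without C572 (adjusted p = 0.0637). Slc18a2, the vesicular monoamine transporter, followed SW22 and C572S, at 44885 and 61521 against 158 to 4251 elsewhere. DESeq2 called it lower in OF1 WT than C57 WT mice (log2 fold change -5.81, adjusted p = 0.0294) and gave a positive interaction (9.58, adjusted p = 0.0395). Without SW22 and C572S these were -1.08 and 1.97, and neither passed (adjusted p = 1 and 0.999 by DESeq2). The other partners named by the rule (Doc2a, Stxbp3, Unc13c, Cadps2, Ppfia2, Ap2a2, Sncb, Syngr3, Slc17a7 and Slc18a3) did not pass with either tool where both gave a value.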

How the data were processed

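RNA of laser-captured SNpc from 12 mice was analysed. The authors quantified paired-end reads with Salmon against transcripts of GRCm39, per their methods from GENCODE M28, and deposited for each library the estimated counts of reads per transcript (not always whole) and TPM values. The library kit does not keep strand. Transcripts were matched by identifier to GENCODE vM39, and 139555 of 140790 (99.1%) belonged to 54193 genes. The symbol Vamp7 matched no gene in it and was not analysed here.

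Estimated counts were summed per gene, rounded, and scaled by effective library sizes (TMM) to their geometric mean. Testing of the 18017 genes with a mean of at least 10 used R 4.3.3 and edgeR 4.0.16 (robust quasi-likelihood test, 1 mean per group, all 12 libraries, 7 comparisons), with Benjamini-Hochberg adjustment over all of them and a threshold of 0.05. DESeq2 1.42.0 was an alternative. Log2 levels used a pseudocount of 1, permutation tests of correlations 100000 draws, and the Snap25 share an exact test with scipy. The fit was also run on simulated counts with known fold changes. Those counts had the same spread for every gene and no outlying libraries, so power in these data was not examined. The labels number no culture or litter. Each mouse gave 1 library, so p-values measure the spread between these libraries. Differences between mice, between dissections and between library preparations cannot be told apart in that spread. Libraries of a group differed by more than sampling noise (chi-square per degree of freedom at least 32.4).

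Depth ran from 13538864 to 168741283 estimated reads, so low members such as Syt10 are the least precise. Exons of 11 members overlap those of another coding gene on the opposite strand, Sv2a and Snap23 among them, and their reads may be shared. Of the genes that meet the rule or stand in the lists, 3 are not reported here and are left out of the counts of members and list genes. The members and lists were chosen with earlier results of these data known. Of the genes reported, those named are 7 core members, members past the threshold in any comparison with either tool, the 3 members with the smallest p of each comparison, the 6 nearest to Slc6a3 by the ratio of the lower of its 2 highest libraries to the highest other library, and of the partner lists up to 4 members past the threshold or otherwise the 2 with the smallest p. Others named are said to be chosen after their values were seen, or illustrate a range.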

Additional observations from a re-analysis of the deposited data

How the results depend on the processing

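No paired analysis was possible because the labels give no numbers shared between groups. Counts are of the members reported, and 0 passed the threshold with edgeR in each of the 7 comparisons. With DESeq2 without SW22 and C572S, an alternative chosen after seeing the data, the count was 1 in place of 0 for OF1-En1+/- against OF1 WT and for En1+/- against WT averaged over strains (Syt6 in both). With DESeq2 without C572, chosen likewise, it was 1 for OF1-En1+/- against OF1 WT (Vamp1) and 1 for OF1 WT against C57 WT (Syt13), in place of 0 each. The cause was not tested. RLE factors, length offsets, no filter, protein-coding genes alone, the fits to the libraries compared, the pan-neuronal covariate, each omission with edgeR and DESeq2 on all libraries left each count as it was.

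The difference in the Snap25 exon 5a share changed sign without OF1-En1+/- replicate 2 (SW22), for OF1 minus C57 (-0.735 points, range over omissions -0.735 to 1.545) and for OF1-En1+/- minus OF1 WT (-1.188 points, range -1.188 to 3.662). For C57-En1+/- minus C57 WT the range was -3.337 to -0.37 points. Of 495 alternatives for 23 named fold changes, 491 kept direction and side of the threshold, 4 became and 0 ceased to be significant, and 0 reversed. None of the 23 passed in the main fit, so none could cease to be significant, and the 491 say little about stability. The number of members that follow Slc6a3 was within 1.5 times of 5 with RLE factors and with counts per transcript length. Leaving out 1 library moved 10 of the 23 by over 1.5 times, those of Syt6 and Vamp1 in 2 comparisons each, Syn3 in 2, Syt10, Syt13, Syt14 and Syt16. Depth limits the members with the fewest reads.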
